A study of Mus musculus with 6 samples.

Results

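The nuclear genes of the mitochondrial respiratory chain and of ATP synthase were followed in mouse embryoid bodies, which are balls of differentiating embryonic stem cells grown free of a dish surface. All probe sets with 1 annotated symbol were taken whose symbol starts with Nduf, Uqcr or Atp5, is Cox4 to Cox8 with a suffix, or is Sdha, Sdhb, Sdhc, Sdhd, Cyc1 or Cycs. This gave 184 of the 45101 probe sets of the array, for 92 genes, and 89 of these genes had a probe set above the signal filter and were tested among 13608 genes. The bodies of 3 samples held gelatin-coated microspheres loaded with retinoic acid (RA), and those of the 3 control samples held gelatin-coated microspheres with the dye CellTracker Red. Both groups were made from the D3 embryonic stem cell line, grew without LIF in rotary culture and were sampled at 10 days, with 1 Affymetrix array for each sample. The design mixes microspheres and cells at several ratios and rotary speeds and does not say which these samples had. The comparison addresses how RA released inside the bodies bears on expression, in 1 cell line and in whole bodies of mixed cells. The labels speak of triplicates but not of separate cultures, so p-values reflect how these samples vary, and that variation may be technical only.

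The respiratory chain sits in the inner mitochondrial membrane. Complex I (NADH dehydrogenase) and complex II (succinate dehydrogenase) pass electrons to ubiquinone, complex III (the cytochrome bc1 complex) passes them to cytochrome c, and complex IV (cytochrome c oxidase) passes them to oxygen. The proton gradient built on the way drives complex V, the ATP synthase. Cells that leave pluripotency, and heart muscle cells above all, are known for high oxidative metabolism. Some complex IV subunits have a second form used in heart and skeletal muscle or in testis.

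Values are log2(intensity + 16) after quantile normalization between arrays, and each gene was read by its brightest probe set above the filter, a mean log2 value of 5.74. Changes are RA minus control on this scale, each with its SE (standard error) from limma, and a call is an adjusted p under 0.05 (Benjamini-Hochberg over all 13608 genes). The median deposited signal was 61.7 to 65.5 on RA arrays and 41.4 to 63.6 on control arrays, the lowest on control array 3. For Gapdh the signal of the 3-prime probe set over that of the 5-prime one, which grows as RNA breaks down, was 34.0 on RA array 1 and 3.06 to 4.74 on the other 5 arrays. The same ratio for beta-actin was 7.42, 4.34 and 4.90 on RA arrays 1, 2 and 3 and 3.46, 3.35 and 4.25 on control arrays 1, 2 and 3, so every RA array lay above every control array. In the marker lists, 9 of 10 pluripotent and epiblast markers were higher with RA and 1 was lower. Of 18 heart muscle markers 12 were lower and 0 higher. Over all genes tested 14.3% were called higher and 15.6% lower. The mean log2 value of the heart markers was 6.41 to 6.55 on RA arrays and 8.71 to 9.15 on control arrays, and Myh6, Tnnt2, Tnni3 and Ryr2 were among those with RA means below the signal filter. The pluripotent and epiblast markers averaged 10.10 to 10.17 on RA arrays and 7.78 to 7.92 on control arrays. Of 6 measured red cell markers 4 were lower, with a mean of 6.23 to 6.32 on RA arrays and 9.33 to 9.52 on control arrays. Of 10 visceral endoderm markers 4 were higher and 6 lower, and of 6 neural progenitor markers 3 were higher and 1 lower. The part of cell types and of RNA quality in the results below was not tested, and in bulk samples whole bodies cannot tell fewer cells of a type from less RNA per cell.

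With quantile normalization, 44 of the 89 respiratory chain genes tested fell in bodies with RA microspheres and 3 rose, and the falls were small, between 1.14-fold and 1.76-fold with a median of 1.40-fold. The background was high: 30.0% of all genes tested were called, 15.6% lower and 14.3% higher. Among the respiratory chain genes 49.4% were called lower and 3.37% higher. The median change was -0.27, against 0.01 over all genes, and 77 of the 89 genes had a negative value. RA and control arrays were fully apart for 61 of the 89 genes, or 68.5%, with all RA arrays lower for 56 of them and higher for 5. Over all genes tested this share was 44.0%. Only 1 of the 89 genes, Ndufaf6, reached both the call and a 2-fold change, against 7.97% of all genes.

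**Figure D1:**
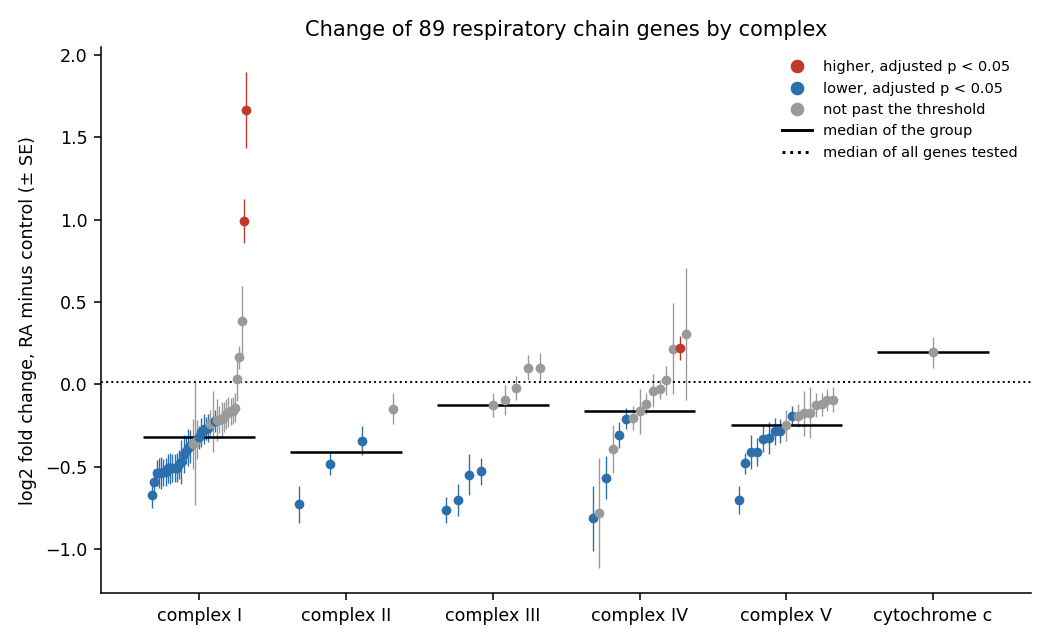
Log2 fold change after quantile normalization (RA minus control, bars ± SE) of each of the 89 genes, grouped by complex on the horizontal axis. Blue points are called lower, red points higher and grey points not called. The short lines are group medians, from -0.41 in complex II to -0.13 in complex III, with the single gene of cytochrome c at 0.19. The dotted line is the median of all genes tested, 0.01.

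The number of falls depended on how the arrays were scaled. With each array divided by its trimmed mean, 32 genes were lower and 5 higher, where 16.4% of all genes were lower. With each array divided by its median signal, a scaling added after the data were seen, 15 genes were lower (16.9%, against 12.3% of all genes) and 2 higher. Without any scaling limma called 0 genes lower and 2 higher, with 1 lower and 6 higher at an unadjusted p under 0.05. Over all genes tested 1949 rose and 2127 fell with quantile normalization, against 1745 and 653 without scaling. Without scaling the median of all genes itself moved to 0.26 and that of the respiratory chain genes to 0.11, a difference of -0.14 between them. That difference was -0.28 with quantile normalization, -0.18 with the trimmed mean and -0.18 with the array median. The 15 genes called lower under all 3 scalings were Ndufs3, Ndufs8, Ndufv1, Ndufv3, Ndufa2, Ndufa3, Ndufb3, Ndufb11 and Ndufaf3 of complex I, Sdhc of complex II, Uqcr10, Uqcr11 and Uqcrq of complex III, Cox6a2 of complex IV and Atp5g1 of complex V. The 2 genes called higher under all 3, and without scaling, were Ndufaf4 and Ndufaf6. A robust variance model without a trend on signal left 23 genes lower. All further values use quantile normalization, so a fall below means lower relative to the other genes on the array.

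**Figure D2:**
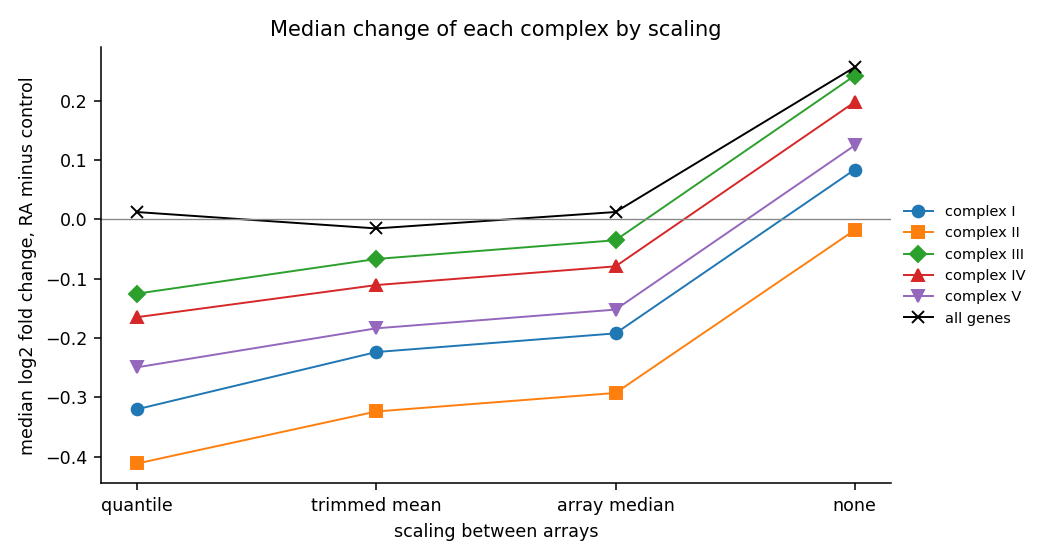
Median log2 fold change (RA minus control) of each complex and of all genes tested under 4 ways of scaling the arrays. The complexes keep their order and lie below the median of all genes under each of them, while without scaling the all-gene median lies at 0.26 and 4 of the 5 complexes have positive medians.

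The number of genes that fell varied by complex, with 24 of 43 in complex I, 3 of 4 in complex II, 4 of 9 in complex III, 4 of 15 in complex IV and 9 of 17 in complex V. The medians were -0.32, -0.41, -0.13, -0.16 and -0.25 in the same order, and the differences between complexes were not tested. Complex I, here and in the figures, holds all genes with Nduf names. It thus includes 8 assembly factors (2 lower, 2 higher) and also Ndufa4 and Ndufa4l2 (neither called). Of its accessory subunits 19 of 27 fell, and of its core subunits 3 of 6. Without these assembly factors 42 of 81 respiratory chain genes were lower and 1 higher. The mean log2 value of the complex I genes was 10.06, 10.06 and 10.05 on RA arrays 1, 2 and 3, and 10.29, 10.31 and 10.30 on control arrays 1, 2 and 3. For complex IV it was 10.06, 10.08 and 10.11 on the RA arrays and 10.33, 10.29 and 10.19 on the control arrays. The groups did not overlap in the mean of any of the 5 complexes, nor in the mean over all genes tested. That all-gene mean was 7.85 to 7.86 on RA arrays and 7.88 on each control array. RA array 1, the array with the high Gapdh ratio, was the lowest RA array for complexes II, III, IV and V, with 9.98, 10.94, 10.06 and 11.37, and without it 36 genes were lower and 3 higher in all.

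**Figure D3:**
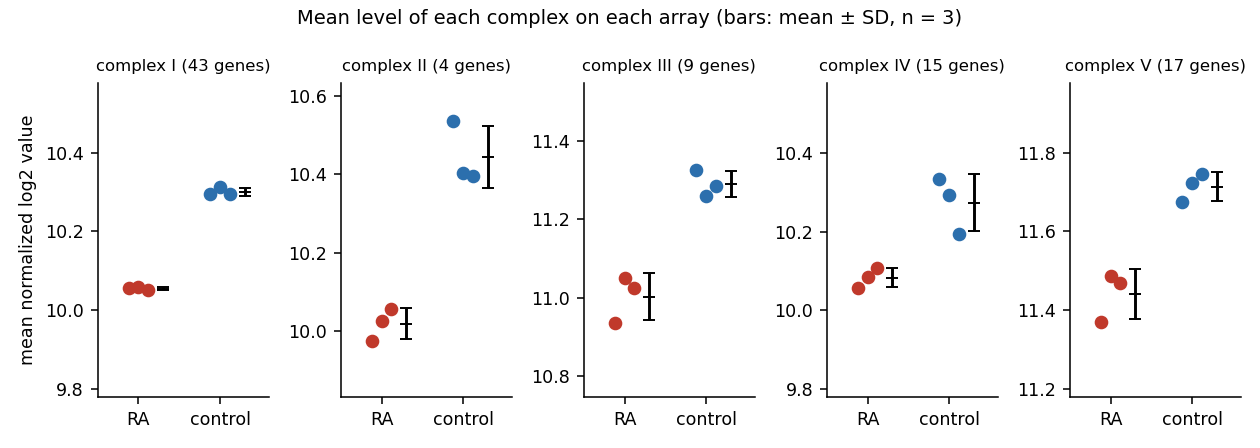
Mean log2 value after quantile normalization of the genes of each complex on each array, RA arrays to the left and control arrays to the right, with the mean ± SD of 3 arrays as bars. In all 5 panels every RA array lies below every control array, and each panel spans the same range of the log2 scale. The mean over all genes tested, not drawn, was also lower on every RA array (7.85 to 7.86) than on every control array (7.88). The complex I panel includes 8 assembly factors and Ndufa4 and Ndufa4l2.

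Complex I takes electrons from NADH through a chain of iron-sulfur clusters held by its core subunits. Ndufs8, a core subunit that carries iron-sulfur clusters, had log2 values of 10.54, 10.57 and 10.62 on the RA arrays and 11.22, 11.03 and 11.27 on the control arrays. All RA values lay below all control values, and the level was 1.51 times lower with RA (log2 fold change -0.60 ± 0.08, limma adjusted p = 0.000231). Of its 6 probe sets 4 were called lower, and 1 dim probe set had a positive value of 0.51. Ndufv1, which binds NADH, and the core subunit Ndufs3 fell by 0.51 and 0.54 on the log2 scale. Ndufs1, Ndufs7 and Ndufv2 had changes of -0.16, -0.14 and -0.22 and did not pass. For Ndufv2 the value of RA array 1 (10.57) stood apart from RA arrays 2 and 3 (11.16 and 11.04), close to the control values (11.17, 11.17 and 11.08), and another of its probe sets was called higher (0.34).

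Accessory subunits surround the core and stabilise it. Of 27 tested 19 fell and limma called 0 higher, with 1 higher at an unadjusted p under 0.05, and their median was -0.32. Ndufa3, a small membrane subunit, had 11.04, 11.28 and 11.20 on the RA arrays and 11.86, 11.89 and 11.78 on the control arrays. The groups did not overlap, and the level was 1.59 times lower with RA (-0.67 ± 0.08, limma adjusted p = 7.28e-05). Ndufv3, an accessory subunit at the NADH-binding tip, had 11.13, 10.99 and 10.97 on the RA arrays and 11.50, 11.56 and 11.65 on the control arrays. It was 1.45 times lower (-0.54 ± 0.08, limma adjusted p = 0.000280), again without overlap. Further falls of at least 0.40 were those of Ndufa2 (-0.53), Ndufa6 (-0.51), Ndufa8 (-0.51), Ndufa10 (-0.48), Ndufa13 (-0.40), Ndufb2 (-0.54), Ndufb3 (-0.53), Ndufb9 (-0.51), Ndufb11 (-0.51) and Ndufs5 (-0.42).

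Smaller falls were those of Ndufa5 (-0.38), Ndufa12 (-0.32), Ndufab1 (-0.29), the mitochondrial acyl carrier protein, Ndufb7 (-0.27), Ndufb5 (-0.27), Ndufc1 (-0.26) and Ndufa1 (-0.22). Ndufa7 (-0.16), Ndufa9 (-0.21), Ndufb6 (-0.18), Ndufb8 (-0.17), Ndufb10 (-0.20), Ndufs4 (-0.24), Ndufb1 (0.38) and Ndufc2 (0.16) did not pass, and Ndufc2 was called higher with trimmed mean scaling (0.26). Ndufb4 lay below the filter, with 4.70, 5.44 and 5.54 on the RA arrays and 5.68, 5.59 and 5.06 on the control arrays. Several of the small falls lay near the threshold and lost their call in fits with an array left out. Those of Ndufa1 (-0.24 to -0.19) and Ndufab1 (-0.36 to -0.20) were lost without RA array 1 or 3 or control array 1 or 2. That of Ndufb7 (-0.34 to -0.18) was lost in 5 of the 6 fits with an array left out, and kept without control array 2. That of Ndufc1 (-0.34 to -0.20) was likewise lost in 5, and kept without control array 1. The call of Ndufs5 was lost without RA array 3 (-0.39) or control array 1 (-0.31), that of Ndufa5 without RA array 2 (-0.31) and that of Ndufb5 without RA array 3 (-0.26). For Ndufa12 a dim probe set had a value of 0.80, and averaging its 4 probe sets gave 0.042.

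Among the 8 assembly factors of complex I, which build the enzyme and are not part of it, 2 rose and 2 fell. That is 25% each, where all genes tested had 14.3% higher and 15.6% lower. Ndufaf6, needed early in assembly, had 8.59, 8.39 and 8.59 on the RA arrays and 7.17, 7.15 and 6.25 on the control arrays. Every RA array lay above every control array, and the level was 3.17 times higher with RA (1.66 ± 0.23, limma adjusted p = 0.000234). The third control array was the lowest, and the other two controls lay near 7.2. Ndufaf4 had 9.02, 9.10 and 9.18 on the RA arrays and 7.98, 8.38 and 7.96 on the control arrays. It was 1.99 times higher with RA without overlap (0.99 ± 0.14, limma adjusted p = 0.000208), and both of its probe sets were called higher. Ndufaf3, the factor that Ndufaf4 is known to work with, was lower, with 7.78, 7.89 and 7.72 on the RA arrays and 8.22, 8.18 and 8.40 on the control arrays. Its change was -0.47 ± 0.13 (limma adjusted p = 0.0189), and the call was lost without RA array 3 (-0.43) or control array 3 (-0.41). Ndufaf1 fell by 0.38, a call lost without any of the RA arrays and without control array 3 (-0.42 to -0.32). Ndufaf2 (0.030), Ndufaf5 (-0.23), Ndufaf7 (-0.36) and Ndufaf8 (-0.21) did not pass.

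Complex II oxidises succinate and is the only one of the 5 complexes encoded wholly in the nucleus. Sdhc, a membrane anchor, had 9.13, 9.33 and 9.48 on the RA arrays and 10.21, 9.91 and 10.02 on the control arrays, 1.66 times lower with RA (-0.73 ± 0.11, limma adjusted p = 0.000544). Sdhb, the iron-sulfur subunit, had 11.07, 11.08 and 11.15 on the RA arrays and 11.62, 11.56 and 11.57 on the control arrays (-0.48 ± 0.07, limma adjusted p = 0.000264). Neither gene showed any overlap between the groups. Sdha, the flavoprotein that holds the active site, had 10.00, 9.89 and 9.77 on the RA arrays and 10.30, 10.18 and 10.21 on the control arrays. Its change of -0.34 ± 0.09 passed (limma adjusted p = 0.0124) but not without RA array 3 (-0.29). Sdhd, the second anchor, had 9.71, 9.80 and 9.82 on the RA arrays and 10.02, 9.97 and 9.78 on the control arrays, which overlapped (-0.15 ± 0.09, limma adjusted p = 0.266). No complex II gene was called higher by limma, nor at an unadjusted p under 0.05.

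In complex III 4 of 7 accessory subunits fell, and neither of the 2 tested subunits that carry the electrons passed. Uqcr10 had 10.14, 10.23 and 10.11 on the RA arrays and 10.96, 10.93 and 10.88 on the control arrays, 1.70 times lower with RA (-0.76 ± 0.08, limma adjusted p = 2.13e-05). Uqcrq, which lies at a ubiquinone site, had 9.70, 10.05 and 9.96 on the RA arrays and 10.62, 10.60 and 10.60 on the control arrays (-0.70 ± 0.10, limma adjusted p = 0.000222). Uqcrc1, a large core protein that faces the matrix, had 10.03, 10.48 and 10.44 on the RA arrays and 10.83, 10.71 and 11.05 on the control arrays (-0.55 ± 0.13, limma adjusted p = 0.00632). The groups overlapped for none of these 3 genes, and RA array 1 was the lowest for Uqcrq and Uqcrc1. Uqcr11 fell by 0.53. Cyc1 (cytochrome c1, 0.10), Uqcrfs1 (the Rieske iron-sulfur protein, -0.13), Uqcrc2 (0.10), Uqcrh (-0.094) and Uqcrb (-0.022) did not pass. Cycs, the cytochrome c that carries electrons on to complex IV, had 12.66, 12.61 and 12.61 on the RA arrays and 12.55, 12.56 and 12.20 on the control arrays. Its change of 0.19 ± 0.09 did not pass (limma adjusted p = 0.143), although it did with trimmed mean scaling (0.32).

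**Figure D4:**
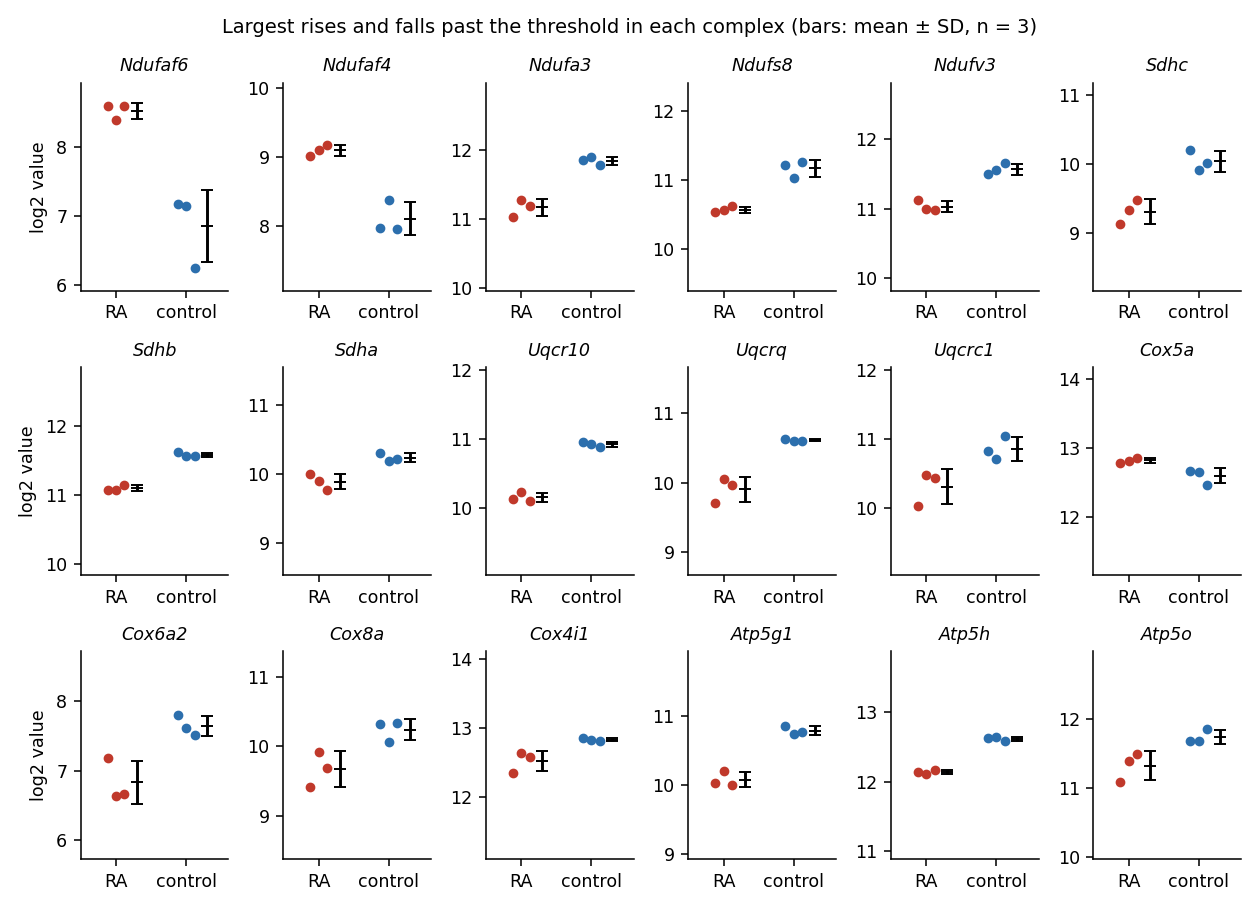
Normalized log2 values on each array for the genes with the largest called rises (up to 3) and falls (up to 3) of each complex, RA arrays left and control arrays right, with the mean ± SD of 3 arrays. Each panel spans 3 log2 units, and in none of them do the groups overlap; the widest gap is that of Ndufaf6, at 8.52 ± 0.12 with RA and 6.86 ± 0.53 in controls.

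Complex IV had the smallest share of falls. Among its common subunits Cox8a had 9.41, 9.92 and 9.69 on the RA arrays and 10.32, 10.06 and 10.33 on the control arrays (-0.57 ± 0.13, limma adjusted p = 0.00610). Cox4i1, among the first nuclear subunits to join the mitochondrial core, had 12.35, 12.63 and 12.57 on the RA arrays and 12.85, 12.82 and 12.81 on the control arrays (-0.31 ± 0.08, limma adjusted p = 0.0114). Cox5a, which forms an early module with Cox4i1, went the other way. It had 12.79, 12.82 and 12.86 on the RA arrays and 12.67, 12.66 and 12.47 on the control arrays, 1.17 times higher with RA without overlap (0.22 ± 0.07, limma adjusted p = 0.0369). That call was lost without RA array 2 (0.23) or 3 (0.21) and without control array 2 (0.25) or 3 (0.15). Of the 3 probe sets of Cox5a 2 were called higher, and the other had a change of 0.0050. Cox5b fell by 0.21, a call lost without RA array 1 or 3 or control array 1 or 2 (-0.24 to -0.18). Cox6c (0.024) did not pass, although its other probe set was called lower (-0.32), and Cox7c (0.22) was read by dim probe sets close to the filter level. Cox7a2l, which joins complexes III and IV into supercomplexes, had a change of -0.039.

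The muscle and testis forms of complex IV subunits were compared with their common forms, since heart muscle markers were low with RA. Cox6a2, the heart and muscle form, had 7.19, 6.64 and 6.67 on the RA arrays and 7.80, 7.62 and 7.52 on the control arrays, 1.76 times lower with RA (-0.81 ± 0.20, limma adjusted p = 0.00918). Its common form Cox6a1 had 13.00, 12.89 and 13.02 on the RA arrays and 13.15, 13.07 and 13.30 on the control arrays (-0.20 ± 0.07, limma adjusted p = 0.0583). The groups were apart for both genes, and the change of Cox6a2 exceeded that of Cox6a1 by -0.61 (exact two-sided permutation p = 0.1, the smallest that 3 against 3 arrays allow, adjusted p = 0.25 over 5 pairs). A second, dimmer probe set of Cox6a1 was itself called lower (-0.45), and against it the difference was -0.37 (exact permutation p = 0.3), a reading added after the data were seen. Cox7a1, also a heart and muscle form, had 7.91, 7.96 and 7.70 on the RA arrays and 8.02, 8.03 and 8.02 on the control arrays (-0.16 ± 0.14, limma adjusted p = 0.402). Its common form Cox7a2 had 12.90, 12.94 and 12.95 on the RA arrays and 12.94, 12.96 and 12.98 on the control arrays (-0.031 ± 0.06, limma adjusted p = 0.744). The pair's changes differed by -0.13 (exact permutation p = 0.1, adjusted p = 0.25), and by 0.021 with the second probe set of Cox7a2 (exact permutation p = 0.9). By comparison the changes of the 18 heart markers ran from -6.11 to 0.14, with a median of -2.27. Of these 12 were called lower, and 3 (Atp2a2, Ttn and Nkx2-5) had positive values by their brightest probe sets. Yet 2 of 4 probe sets of Atp2a2 (lowest -2.03) and 1 of 3 of Ttn (lowest -2.15) were called lower. So was 1 of 2 probe sets of Pln (lowest -1.79), which was not called by its brightest. Myl7, a myosin light chain with 1 of the largest falls, was 33.2 times lower with RA.

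Cox8b, the third muscle form, stayed near the filter level, with 6.55, 5.52 and 6.53 on the RA arrays and 6.12, 6.41 and 5.16 on the control arrays, which overlapped (0.30 ± 0.40, limma adjusted p = 0.615). Cox6b2, known from testis, had 9.08, 9.26 and 8.84 on the RA arrays and 9.75, 9.35 and 9.27 on the control arrays (-0.39 ± 0.15, limma adjusted p = 0.0623). Its common form Cox6b1 had 12.91, 12.83 and 12.87 on the RA arrays and 12.99, 13.05 and 12.92 on the control arrays (-0.12 ± 0.06, limma adjusted p = 0.196). Neither form passed by its brightest probe set, and the differences in change were 0.87 for Cox8b minus Cox8a and -0.28 for Cox6b2 minus Cox6b1 (exact permutation p = 0.3, adjusted p = 0.375, for each). The second probe set of Cox6b1 was called lower (-0.31), and with it the difference from Cox6b2 was -0.088 (exact permutation p = 0.7). The testis form Cox8c had 5.31, 6.35 and 6.72 on the RA arrays and 7.13, 6.73 and 6.87 on the control arrays (-0.78 ± 0.34, limma adjusted p = 0.106). RA array 1 stood apart at the low end for this gene. Cox4i2, the lung form of Cox4i1, and Cox7b2 lay below the filter, Cox4i2 with 4.86, 6.13 and 5.40 on the RA arrays and 5.98, 5.76 and 5.77 on the control arrays. Cox7b2, known from testis, had 5.37, 5.41 and 5.99 on the RA arrays and 5.05, 4.34 and 5.49 on the control arrays.

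Ndufa4 carries a complex I name but is now assigned to complex IV. It had 10.76, 11.14 and 10.86 on the RA arrays and 11.47, 11.25 and 11.06 on the control arrays, which overlapped (-0.34 ± 0.12, limma adjusted p = 0.0514). Its relative Ndufa4l2, known as a hypoxia-induced gene, had 6.25, 5.34 and 5.45 on the RA arrays and 6.30, 6.40 and 5.39 on the control arrays (-0.35 ± 0.38, limma adjusted p = 0.537). Its RA mean lay below the filter level, and the changes of the pair differed by -0.014 (exact permutation p = 1, adjusted p = 1), with a range of -0.37 to 0.27 when single arrays were left out.

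**Figure D5:**
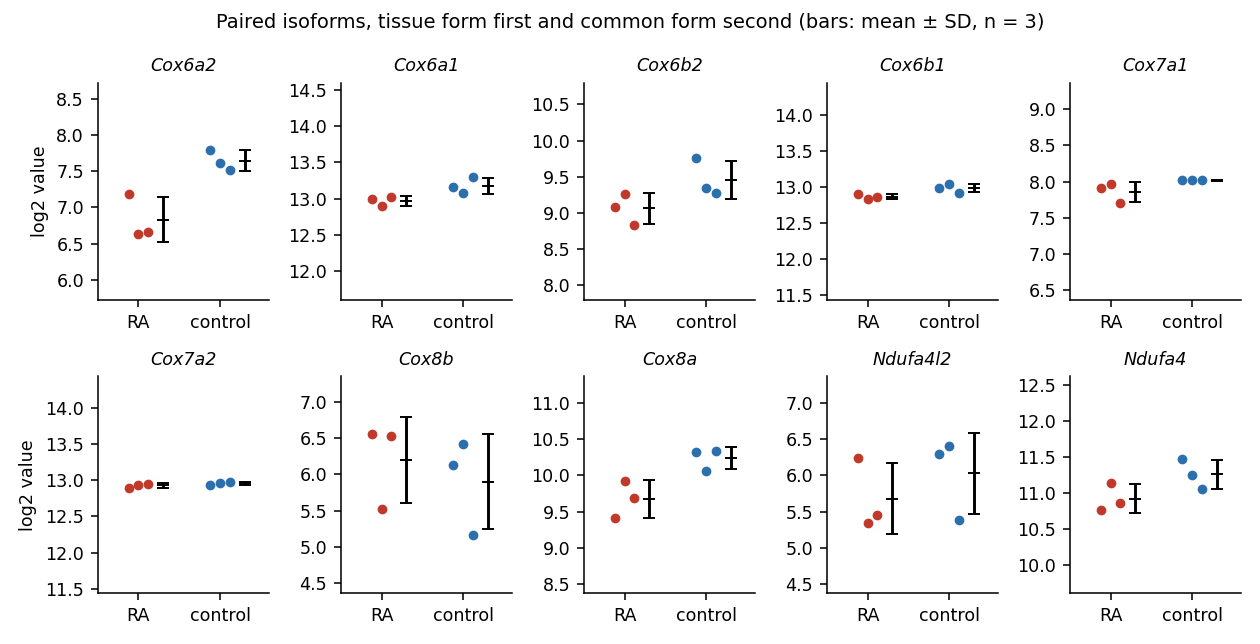
Normalized log2 values on each array for the pairs of tissue or condition specific forms and common forms, RA arrays left and control arrays right, with the mean ± SD of 3 arrays. Each panel spans 3 log2 units; only Cox6a2 among the specific forms was called, and Cox8b and Ndufa4l2 show the widest spread within groups. Levels of different probe sets are not comparable.

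In complex V the membrane ring that turns with proton flow is built from 1 protein encoded by 3 genes, and 2 of these fell. Atp5g1 had 10.03, 10.21 and 10.00 on the RA arrays and 10.86, 10.73 and 10.76 on the control arrays, 1.63 times lower with RA (-0.70 ± 0.09, limma adjusted p = 8.81e-05). Atp5g3 had 12.65, 12.66 and 12.64 on the RA arrays and 12.82, 12.84 and 12.87 on the control arrays (-0.19 ± 0.06, limma adjusted p = 0.0308). Atp5g2 had 11.18, 11.88 and 11.82 on the RA arrays and 11.68, 11.75 and 11.96 on the control arrays (-0.17 ± 0.15, limma adjusted p = 0.452). The groups were apart for Atp5g1 and Atp5g3, whereas for Atp5g2 RA array 1 stood apart from RA arrays 2 and 3, which lay among the controls. The call of Atp5g3 was lost without RA array 2 or 3 or control array 1 or 2 (-0.20 to -0.17).

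Of the stalk subunits, which hold the catalytic head still, 3 of 4 fell. Atp5h had 12.13, 12.11 and 12.17 on the RA arrays and 12.63, 12.64 and 12.58 on the control arrays, 1.40 times lower with RA (-0.48 ± 0.06, limma adjusted p = 0.000141), and both of its probe sets were called lower. Atp5o, the top of the stalk, had 11.09, 11.40 and 11.48 on the RA arrays and 11.68, 11.68 and 11.85 on the control arrays (-0.41 ± 0.10, limma adjusted p = 0.00963). By these probe sets neither gene overlapped between groups. A second probe set of Atp5o, with a mean log2 value of 10.26, had a change of -0.051 and was not called. Atp5j fell by 0.33, a call lost without RA array 3 (-0.27), and Atp5pb (-0.096) did not pass. In the F1 part of the enzyme Atp5c1 fell by 0.28, Atp5d by 0.33 and Atp5e by 0.29. The large F1 subunits Atp5a1 (-0.094) and Atp5b (-0.19), which form the active sites of the catalytic head, did not pass. The call of Atp5d was lost without RA array 1 or 2 or control array 3 (-0.39 to -0.22), and that of Atp5e without RA array 1 or 2 or control array 2 (-0.31 to -0.25). Among the membrane subunits Atp5l fell by 0.41, and Atp5j2 (-0.25), Atp5k (-0.12), Atp5md (-0.18) and Atp5mpl (-0.13) did not pass. All 17 complex V genes had negative values, and limma called 0 higher, also at an unadjusted p under 0.05.

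Of the 42 genes not called, 8 had another probe set called lower, namely Ndufa7, Ndufb6, Ndufs7, Ndufaf8, Cox6a1, Cox6b1, Cox6c and Atp5j2, and Ndufv2 had 1 called higher. Of the genes described, 5 lie on chromosome 11 (Uqcr10, Uqcrq, Atp5g1, Atp5h and Ndufaf8), and 4 of these fell, with a median of -0.70. The median over all 1116 tested genes of this chromosome was -0.20. Without these 5 genes, a count added after the data were seen, 40 of the other 84 were lower and 3 higher, and the median change was -0.26.

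Many nuclear genes of the respiratory chain are known targets of the transcription factor NRF1, whose gene Nrf1 was 1.75 times higher with RA (0.81 ± 0.15, limma adjusted p = 0.00145). A second probe set of Nrf1 had a value of 0.36 and was not called. Promoter windows of RefSeq (GRCm38.p6, 250 bases before to 50 after the start, the first window listed for a gene) were found for 73 of the 89 genes. The letters CGCANGCG, the core of the NRF1 motif, occurred on either strand in 34.2% of these windows, against 13.6% of the windows of all genes named on the array. They occurred in 36.8% of 38 windows of genes that fell and in 31.4% of 35 windows of the other genes. The letters CCGGAAG, an ETS core, occurred in 24.7% and 13.8% of the windows of respiratory chain genes and of array genes, and ATGGCG, a YY1 core, in 26% and 12.7%. The ETS core was in 26.3% of windows of genes that fell and 22.9% of those of the other genes, and the YY1 core in 18.4% and 34.3%. The 3 strings were searched apart, on both strands, and their matches may overlap. The array windows include those of genes below the signal filter, whereas the 73 windows come from tested genes only. A match is a description of the sequence and not a site of binding. In the following stretches every match to the NRF1 core is in capitals. They reach 40 bases to each side of 1 match, as far as these lie before the start, and come from Ndufaf4, which rose, and from the gene with the largest fall and such a match before its start in complexes I, II and V, among the genes considered for printing. They were chosen because a gene that rose and genes that fell share the match. Among the genes considered, 1 called higher, 7 called lower and 8 not called had a match before the start.
Ndufaf4, chr4:24897931-24898018, plus strand: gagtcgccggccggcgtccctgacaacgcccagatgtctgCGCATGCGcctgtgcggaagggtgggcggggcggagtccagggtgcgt
Ndufa8, chr2:36049339-36049407, minus strand: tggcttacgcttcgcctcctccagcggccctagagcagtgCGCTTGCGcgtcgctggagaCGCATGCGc
Sdha, chr13:74350290-74350377, minus strand: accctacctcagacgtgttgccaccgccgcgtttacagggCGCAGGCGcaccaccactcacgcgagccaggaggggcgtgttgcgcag
Atp5h, chr11:115420012-115420099, minus strand: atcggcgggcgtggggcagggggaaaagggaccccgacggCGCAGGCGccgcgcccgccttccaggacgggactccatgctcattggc

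Regulators of mitochondrial biogenesis showed more rises than falls. Of 20 measured 7 rose (35%) and 1 fell (5%), with a median of 0.29, against 14.3% higher and 15.6% lower over all genes. Pprc1, a coactivator of the PGC-1 family, averaged 9.53 ± 0.03 with RA and 8.73 ± 0.17 in controls (SD, n = 3), 1.74 times higher (limma adjusted p = 0.000211). Tfam, which packs mitochondrial DNA and takes part in its transcription, averaged 10.04 ± 0.08 with RA and 9.49 ± 0.03 in controls (SD, n = 3, limma adjusted p = 0.000572). A second probe set of Tfam had a value of 0.38 and was not called. Ssbp1, which binds single-stranded mitochondrial DNA, was 1.34 times higher (limma adjusted p = 0.00127). Of its 4 probe sets 2 were called higher, and the lowest value was -0.065. The 1 fall was that of the nuclear receptor Esrrg (-0.93), named here after its value was seen. Its RA mean of 5.81 lay close to the filter level, and its other probe set had a positive value of 0.17. The 15 listed genes of mitochondrial DNA itself are not analysed here.

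Assembly factors outside the Nduf family had 4 rises and 10 falls among 41 measured, with a median of -0.16. That is 9.76% higher and 24.4% lower, against 14.3% and 15.6% of all genes tested. Coa3 and Sdhaf4, which serve the assembly of complexes IV and II, fell by 0.82 and 0.96, and Coa3 lies on chromosome 11. The related genes Higd1a and Higd2a went opposite ways, at 1.78 times higher and 1.39 times lower with RA. In the order named, these 4 genes had limma adjusted p of 2.08e-05, 7.54e-05, 2.10e-05 and 0.00120. Of the 3 probe sets of Higd1a only 1 was called higher, and the lowest value was -0.070.

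In the tricarboxylic acid cycle and pyruvate dehydrogenase list, which feeds the chain with electrons, 4 of 25 rose and 7 fell (median -0.13). That is 16% higher and 28% lower, where all genes tested had 14.3% and 15.6%. Pdk1, a kinase that switches off pyruvate dehydrogenase, averaged 10.26 ± 0.08 with RA and 8.41 ± 0.16 in controls (SD, n = 3), 3.59 times higher (limma adjusted p = 2.80e-07). Mpc1, a subunit of the mitochondrial pyruvate carrier, averaged 6.24 ± 0.17 with RA and 8.05 ± 0.15 in controls (SD, n = 3), 3.51 times lower (limma adjusted p = 2.41e-05). Idh2 and Suclg1, both enzymes of the matrix, fell by 0.91 and 0.51. Among carriers and other routes of electron entry 2 of 16 rose (12.5%) and 4 fell (25%), with a median of -0.11. Etfb and Etfdh, which pass electrons from fatty acid oxidation to ubiquinone, fell by 1.16 and 0.61, and the ADP/ATP carrier Slc25a4, a heart and muscle form, fell by 0.43. Gpd2, the mitochondrial glycerol phosphate dehydrogenase, was 2.06 times higher. The limma adjusted p of the last 6 genes ran from 5.18e-06 to 0.00853.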

How the data were processed

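The deposited values are linear intensities, 1 for each probe set and array; per the labels they were made with Affymetrix GCOS at default settings (version not given in the sources used here). Arrays were not scaled to a common level: the trimmed mean signal, 2% off each end, was 170 to 191 on RA arrays and 108 to 172 on control arrays. Such values give no counting interval, and the number of arrays limits the precision. The 64 control probe sets were left out, log2(intensity + 16) was quantile normalized, and 27022 probe sets with a mean above the 40th percentile were kept. Symbols were those of the platform annotation, and 10 probe sets of such genes with several symbols were left out. Chromosomes and promoter windows came from RefSeq (GRCm38.p6), and genes of chromosome 18 were not considered for printing. The test was a two-sided limma fit (version 3.58.1, R 4.3.3, lmFit and eBayes with trend), which was tested on simulated data. Values on every array are given for isoform pairs and for up to 3 largest called rises and falls in each complex, and of each other list up to 4 genes of smallest p are named. Sdhd, Cycs, Cox8c, Ndufaf3, Ndufv2, Atp5g2, Atp5g3, Ndufb4 and Cox7b2 are given on every array, and Esrrg, Myh6, Myl7, Tnnt2, Tnni3 and Ryr2 are named, by choice after their values were seen. The members and lists were chosen with earlier results of these data known. Alternatives covered the scaling, pseudocount, filter, probe set (of isoform pairs too, added later), replicate block, variance model and left-out arrays. The samples of the groups share replicate numbers, which were not treated as pairs in the main fit. Same-numbered samples' deviations correlated at -0.085, -0.014 and -0.027. Such values cannot show whether the samples were made or processed in pairs.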

Additional observations from a re-analysis of the deposited data

How the results depend on the processing

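Scaling had the greatest effect on these small changes. Without scaling, 653 genes in all and 0 respiratory chain genes were lower in limma (1 at an unadjusted p under 0.05). The median of the respiratory chain genes was then 0.11, and those of complexes I to V were 0.084, -0.018, 0.24, 0.20 and 0.13. The medians of assembly factors, biogenesis regulators, the tricarboxylic acid cycle list and carriers were 0.10, 0.53, 0.23 and 0.21. Genes called lower whose sign turned without scaling were Atp5c1 (0.12), Atp5d (0.071), Atp5e (0.091), Atp5g3 (0.20), Atp5j (0.075), Cox4i1 (0.083), Cox5b (0.20), Ndufa1 (0.16), Ndufa12 (0.084), Ndufa5 (0.0039), Ndufab1 (0.11), Ndufb5 (0.14), Ndufb7 (0.13), Ndufc1 (0.15) and Sdha (0.033). Ndufa12 also turned with the mean of its probe sets (0.042). With trimmed mean scaling 5 respiratory chain genes were higher, their median was -0.19, complexes I, II and III had -0.22, -0.32 and -0.067, and assembly factors had -0.20. Scaling by the array median, added after the data were seen, gave 15 lower genes, a median of -0.16, complexes I, II and III at -0.19, -0.29 and -0.035 and the tricarboxylic acid cycle list at -0.019. With the all-gene median subtracted from unscaled values, also added later, 707 genes in all were higher and 1046 lower, 1 respiratory chain gene was lower, the median was -0.14, and complexes I, II and III had -0.17, -0.27 and -0.014.

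Robust eBayes without trend left 23 lower genes. With the common form of a pair read by its second probe set, an alternative added after the data were seen, the differences in change were -0.37 (Cox6a2), -0.088 (Cox6b2), 0.021 (Cox7a1) and 0.84 (Cox8b). Testing every kept probe set gave 6 higher and 72 lower of 166, 3051 higher in all, and assembly factors at -0.066. A pseudocount of 64 moved complex I to -0.29 and biogenesis regulators to 0.24, and no signal filter moved the regulators to 0.23. With both RA array 1 and control array 3 left out, complex I was at -0.29 and the regulators at 0.21. Leaving out single arrays gave 34 to 42 lower and 2 to 3 higher genes, complex I at -0.34 to -0.28, complex III at -0.19 to -0.094, assembly factors at -0.15 to -0.082 and regulators at 0.23 to 0.33. Of the 47 called genes 31 kept their call in all 6 such fits. With the replicate block in the fit, 42 respiratory chain genes were lower and 2 higher. The cause of these differences was not tested. Changes of Cox8b and Ndufa4l2 rest on values near the filter level and are limited by signal over background.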
